A study of Mus musculus with 21 samples.

Results

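The interval examined here runs between 24 h and 36 h of erythropoietin (Epo) treatment of MEDEP cells, a line of mouse erythroid progenitors that was derived from embryonic stem cells. It was measured by 6 of the study's 21 libraries of polyadenylated RNA, 3 from cells at 36 h and 3 from cells at 24 h, chosen by their labelled time. All 6 came from the BRC5 line, so the comparison describes a single line in culture. The cells had been expanded with stem cell factor and dexamethasone. Differentiation was started by withdrawing both and adding 4 U/ml Epo, and the culture was diluted to keep its density down. None of these libraries had received succinyl acetone, the inhibitor of heme synthesis used elsewhere in the study. The 12 h and 48 h libraries, 3 of each and also without the inhibitor, served as neighbours in time.

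Late in erythroid differentiation a dividing precursor leaves the cell cycle, condenses its nucleus, clears its organelles and fills with hemoglobin. Hemoglobin joins alpha and beta globin chains to heme, which is built partly in mitochondria and partly in the cytosol. Messenger RNAs outside this programme are mostly lost before the nucleus is expelled, so the few that remain make up a growing share of the pool. Any measure that divides by the whole pool therefore moves with the globins, so most changes below are given in scaled counts and in TPM, and those between successive steps in counts with and without scaling.

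The 36 h libraries held 22284300, 33121800 and 16695700 estimated counts, and the 24 h libraries held 37515200, 33482400 and 23469200. Ranks of genes correlated between replicates at 0.988 to 0.997 (Spearman, across genes), and no pair of libraries held identical values. All 8 erythroid markers were detected in both groups. The summed TPM of these markers was 4013, 4006 and 4150 at 36 h, against 6020, 6333 and 6247 at 24 h. In scaled counts 7 of the 8 were higher at 36 h and 1 was lower. Their median log2 change there was 0.90, against -0.03 for all tested genes. Markers of macrophages, neutrophils, lymphocytes, endothelium and pluripotent cells summed to at most 1.27 TPM per list at 36 h and at most 2.59 TPM at 24 h. The mast cell list summed to 5.84, 4.02 and 6.09 TPM at 36 h, against 15.8, 11 and 13.6 TPM at 24 h. The stromal list summed to 14.0, 9.09 and 15.5 TPM at 36 h, against 27.2, 27.9 and 30.8 TPM at 24 h; 2 of its 13 genes passed the count filter, of which the collagen gene Col5a1 was at 99.4, 120 and 160 CPM (TMM-scaled) at 36 h, against 84.4, 92.0 and 92.3 at 24 h. The megakaryocyte list summed to 153, 171 and 177 TPM at 36 h, against 110, 113 and 115 TPM at 24 h, with Ppbp and Clec1b at 0. The part of these cell types in the results was not tested. In bulk RNA, fewer cells of a type and less RNA per cell cannot be told apart.

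Globin RNA became the larger part of the transcript pool, as measured in TPM, in this interval. Globins made up 69.6%, 71.3% and 70.1% of deposited TPM, a length-normalised share of the transcript pool scaled to a fixed total, at 36 h, against 16.0%, 15.5% and 13.4% at 24 h. The interval was picked because this share rises in it, so the globin values are a description and carry no test. Hbb-bs, an adult beta globin gene on chromosome 7 (GRCm38 chr7:103826534-103828096, minus strand), was at 277092, 302741 and 289086 TPM at 36 h, against 55410, 54100 and 46690 TPM at 24 h. Hba-a2, an adult alpha globin gene (chr11:32296489-32297298, plus strand), was at 260083, 247338 and 254998 TPM at 36 h, against 37804, 40058 and 31737 TPM at 24 h. These 2 genes alone held the larger part of all TPM in every 36 h library, whereas 113, 106 and 120 genes were needed for the same share at 24 h.

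The partner genes gained less. Hba-a1 (chr11:32283511-32284465, plus strand) was at 59789, 61101 and 58917 TPM at 36 h, against 32403, 31631 and 28879 TPM at 24 h. Hbb-bt (chr7:103812524-103813996, minus strand) was at 98735, 101420 and 97798 TPM at 36 h, against 33991, 29451 and 26734 TPM at 24 h. The ratio of Hba-a2 to Hba-a1 was thus 4.35, 4.05 and 4.33 at 36 h, against 1.17, 1.27 and 1.10 at 24 h, with no overlap. The 2 alpha genes, like the 2 beta genes, are near-identical in sequence, so how the deposited values divide reads between partners is uncertain. The summed alpha to beta ratio is not free of that division, because partners differed in the counts that stood behind 1 TPM. Relative to the median gene these counts averaged 0.0762 for Hba-a2 and 0.120 for Hba-a1 at 36 h. The summed ratio was 0.851, 0.763 and 0.811 at 36 h, against 0.785, 0.858 and 0.826 at 24 h, and the groups overlapped.

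The size of the globin gain depended on the unit. In estimated counts, globins held 22.6% ± 0.224 at 36 h and 4.76% ± 0.441 at 24 h (SD, n = 3 each). TPM divides each gene's counts by an effective length, and the counts that stood behind 1 TPM shifted for the globins between the groups. Relative to the median gene, Hba-a2 had 0.0778, 0.0740 and 0.0767 counts per TPM at 36 h, against 0.158, 0.164 and 0.165 at 24 h, a ratio of 0.469. The same ratio was 0.499 for Hbb-bs, 0.557 for Hba-a1 and 0.591 for Hbb-bt. Over 7787 genes with at least 50 counts in all 6 libraries its median was 1.01 and its 5% and 95% points were 0.874 and 1.11. With a single weight per gene, taken from 24 h, globins held 54.8% ± 0.313 at 36 h and 15.0% ± 1.19 at 24 h (SD, n = 3 each). The rise in globin share was thus present on all 3 scales, but its end point at 36 h ranged from 22.6% to 70.3%.

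**Figure D1:**
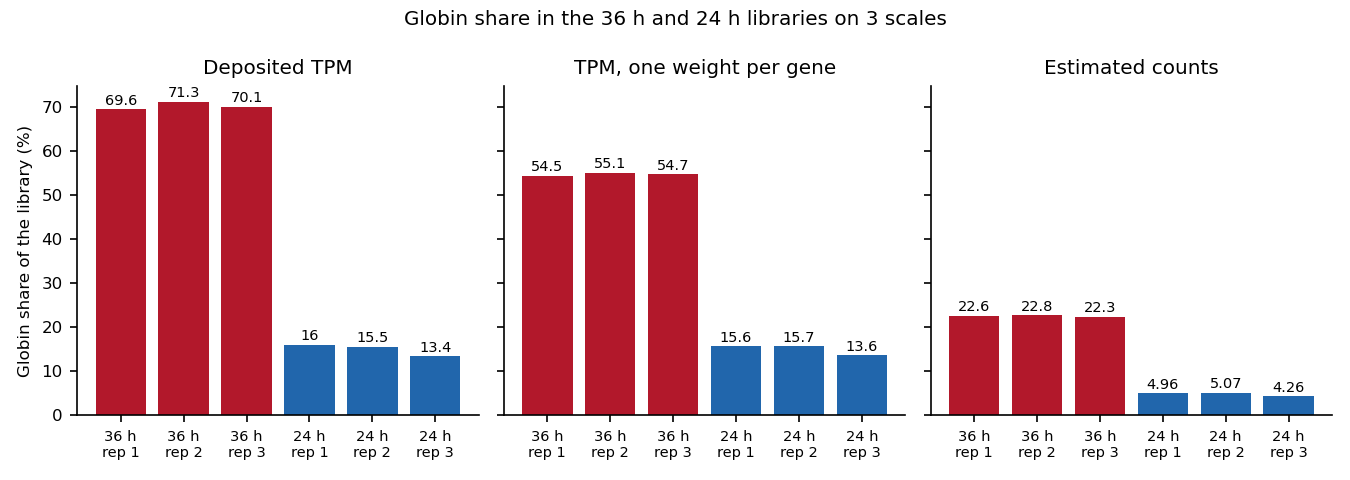
Globin share of each library (percent, vertical axis) on deposited TPM, on TPM recomputed with a single count-per-TPM weight per gene, and in estimated counts; each bar is 1 library, 36 h in red and 24 h in blue. The 36 h bars average 70.3% in deposited TPM, 54.8% with fixed weights and 22.6% in counts, and on each scale every 36 h bar exceeds every 24 h bar.

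How many other genes were called higher or lower depended on the scaling. Scaling by TMM, which sets the bulk of genes level between libraries, gave a median change of -0.03 (log2) and 9044 calls among 12360 tested genes (73.2%; edgeR's quasi-likelihood test, adjusted p at most 0.05). The scaled values of the groups did not overlap for 8737 of these calls, against 76.2% of all tested genes. Of all tested genes, 34.1% were higher at 36 h (4219 genes) and 39% were lower (4825 genes). Without a scaling factor the median change was -1.03, with 1718 genes higher and 7852 lower. On log2(TPM + 1), tested with limma, the median was -1.84. Of 9525 genes tested there 93.4% were called: 4.3% were higher (410 genes) and 89.1% were lower (8486 genes). The non-globin share of TPM itself changed by -1.52 (log2). Among 9502 genes tested both ways, 2032 (21.4%) were called higher in scaled counts and lower in TPM. A further 4628 (48.7%) were called lower on both, and 409 (4.3%) were called higher on both. All 409 were also higher without a scaling factor. A list with about 34.1% of its members higher and 39% lower in counts, or about 89.1% lower in TPM, matches the shares over all tested genes. The TPM values of the groups did not overlap for 399 of the 409, against 85.9% of all genes tested in counts. The p-values rest on a spread within groups estimated from all 21 libraries, and the study describes the samples as biological replicates. The compared libraries alone gave 8527 calls in counts among 11005 tested genes. Log2 changes below are from TMM-scaled counts unless TPM is named, and a TPM change is on the log2(TPM + 1) scale, which understates changes of low genes.

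**Figure D2:**
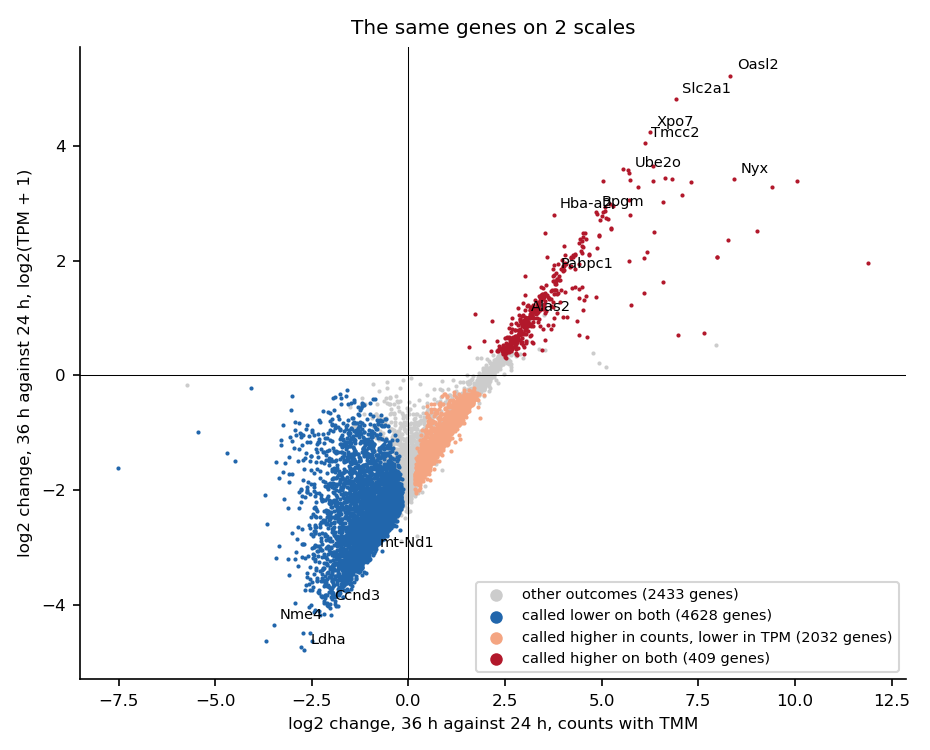
Log2 change at 36 h against 24 h for 9502 genes, in TMM-scaled counts (horizontal axis) and on log2(TPM + 1) (vertical axis), coloured by the calls on both. The cloud lies below the diagonal: 2032 genes (orange) were higher in counts and lower in TPM, and 409 genes (red) were higher on both.

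Among the transcripts that gained on every scale was Slc2a1, which encodes the glucose transporter GLUT1 (GRCm38 chr4:119108711-119137983, plus strand). It was at 351, 290 and 199 TPM at 36 h, against 4.89, 13.1 and 9.89 TPM at 24 h. All 36 h libraries lay far above all 24 h libraries, and the change was 6.92 ± 0.37 in counts (SE; adjusted p = 1.21e-12, edgeR) and 4.82 ± 0.29 in TPM. Bpgm, the enzyme that makes the 2,3-bisphosphoglycerate with which red cells tune oxygen release (chr6:34476207-34505613, plus strand), was at 382, 384 and 341 TPM at 36 h, against 50.9, 44.6 and 55.7 TPM at 24 h. Its groups were also apart, with a change of 4.85 ± 0.12 (adjusted p = 1.15e-16, edgeR). Cx3cl1, a chemokine, was at 25.2, 10.9 and 17.1 TPM at 36 h, against 0.949, 0.448 and 0.554 TPM at 24 h (6.63 ± 0.38 in counts, 3.44 in TPM). Its 36 h libraries differed among themselves without reaching the 24 h range. Nyx, the gene of nyctalopin, a protein known from the retina, rose by 8.42 ± 0.39 in counts, to 8.76, 15.5 and 10.7 TPM at 36 h, against 0.118, 0.127 and 0.208 TPM at 24 h.

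By the amount of TPM gained, the non-globin genes Ftl1, Pabpc1, Tmcc2, Ucp2, Alas2 and Gadd45a came first, in that order. Pabpc1, the cytoplasmic poly(A)-binding protein (chr15:36595661-36609668, minus strand), was at 3824, 3984 and 3338 TPM at 36 h, against 1021, 1099 and 1174 TPM at 24 h. The groups did not overlap, and the change was 3.77 ± 0.15 in counts (adjusted p = 2.04e-14, edgeR) and 1.76 ± 0.17 in TPM. Tmcc2, a coiled-coil membrane protein gene, was at 1733, 2362 and 1976 TPM at 36 h, against 120, 114 and 127 TPM at 24 h, and rose by 6.11 ± 0.21 in counts (adjusted p = 2.21e-15, edgeR) and 4.05 ± 0.22 in TPM. Gadd45a, a gene induced by DNA damage and growth arrest (chr6:67035096-67037457, minus strand), was at 1242, 1437 and 1276 TPM at 36 h, against 241, 243 and 259 TPM at 24 h. It rose by 4.52 ± 0.15 in counts (adjusted p = 1.61e-15, edgeR) and 2.41 ± 0.17 in TPM. Ftl1, the ferritin light chain that stores iron, was at 7476, 7993 and 6385 TPM at 36 h, against 5305, 4355 and 4263 TPM at 24 h. Ucp2, a carrier of the mitochondrial inner membrane, was at 3544, 3465 and 3557 TPM at 36 h, against 2080, 1787 and 1782 TPM at 24 h. Both were higher in every 36 h library, by 2.58 and 2.91 in counts and by 0.65 and 0.91 in TPM.

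The 12 largest falls in counts, among genes averaging 100 counts or more in the 6 libraries whose groups did not overlap, ran from -3.69 for Ptpn6, a tyrosine phosphatase of blood cells, to -2.94 for Idh2, and 5 of them are described here. Idh2, the mitochondrial NADP-dependent isocitrate dehydrogenase (chr7:80094846-80115392, minus strand), was at 1.11, 0.73 and 0.795 TPM at 36 h, against 28.7, 25 and 30.9 TPM at 24 h. It fell by 2.94 ± 0.14 in counts (adjusted p = 1.29e-13, edgeR) and by 3.96 in TPM. Decr1, an enzyme of unsaturated fatty acid oxidation (chr4:15917240-15945507, minus strand), was at 0.198, 0.189 and 0.332 TPM at 36 h, against 7.79, 11.2 and 12.5 TPM at 24 h. Bdh1, which interconverts ketone bodies, was at 0.469, 0.365 and 0.75 TPM at 36 h, against 15.6, 15.0 and 17.4 TPM at 24 h. Spr, which completes tetrahydrobiopterin synthesis (chr6:85130176-85137766, minus strand), was at 0.493, 0.12 and 0.396 TPM at 36 h, against 10.6, 8.76 and 9.04 TPM at 24 h. Decr1, Bdh1 and Spr fell by 3.42, 3.10 and 3.35 in counts and no library of one group reached the other group. The lysine methyltransferase gene Smyd2 behaved alike, at 0.355, 0.204 and 0.397 TPM at 36 h, against 11.8, 10.5 and 11.3 TPM at 24 h, a fall of 3.10 ± 0.15 in counts.

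**Figure D3:**
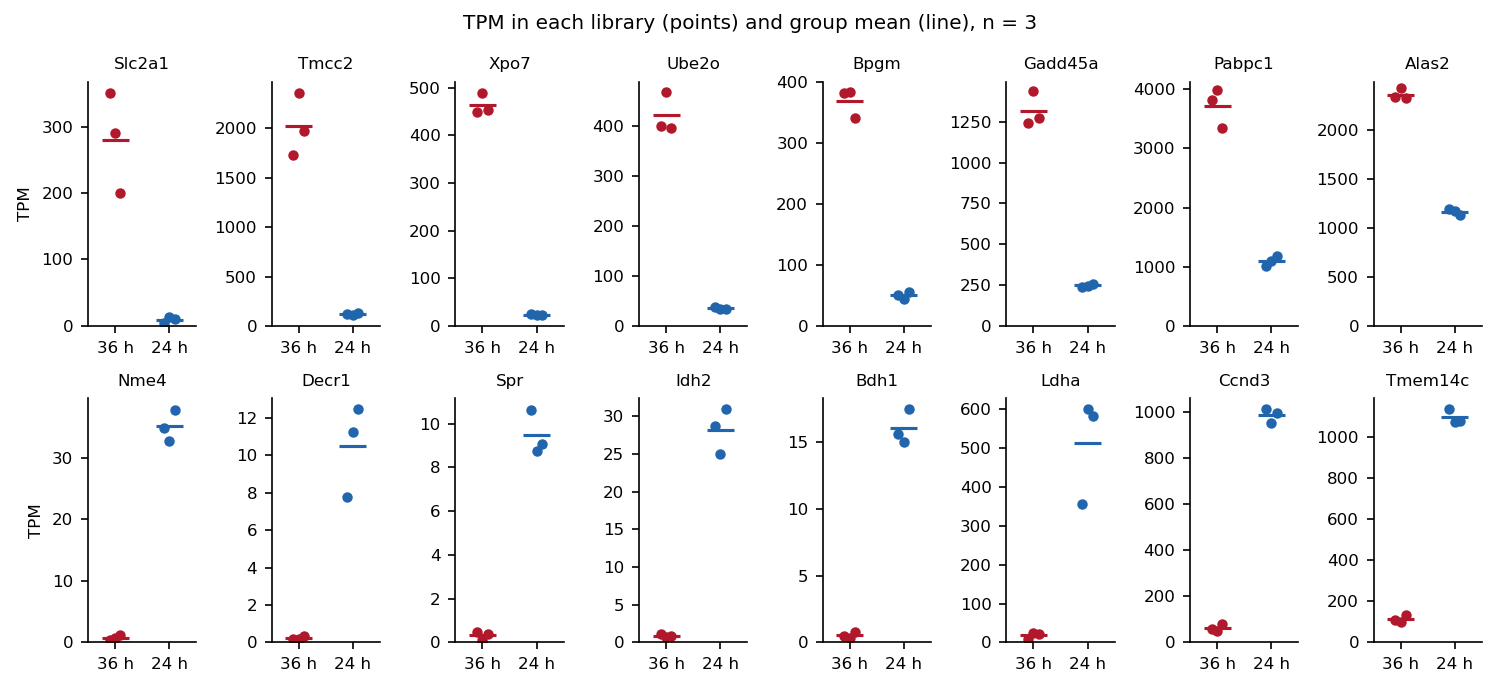
TPM (vertical axis, linear from 0, own scale per panel) of 8 genes that rose (top) and 8 that fell (bottom) on both scales; points are libraries, lines are means of n = 3, 36 h to the left of 24 h. In every panel the 36 h and 24 h points are apart; Slc2a1 spans 199 to 351 TPM at 36 h against 4.89 to 13.1 TPM at 24 h.

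The heme enzymes did not move together. Of the 8 enzymes, 5 were higher and 2 lower in counts (median 1.03, against -0.03 for all tested genes), while in TPM 1 was higher and 5 were lower (median -1.04, against -1.84). Alas2, the first and rate-limiting enzyme in erythroid cells, was at 2333, 2428 and 2320 TPM at 36 h, against 1195, 1167 and 1130 TPM at 24 h, and was the member that rose on both scales (1.02 in TPM). Fech, the enzyme that inserts iron at the end, was at 532, 568 and 585 TPM at 36 h, against 618, 736 and 731 TPM at 24 h; it rose by 1.77 in counts, with a TPM change of -0.30 that missed the threshold. Alad, which acts directly after Alas2, was at 120, 121 and 178 TPM at 36 h, against 868, 766 and 791 TPM at 24 h, and fell on both scales, by 0.49 in counts and by 2.55 in TPM. Uros fell by 0.35 in counts, whereas Urod rose there by 1.57, with a TPM change of -0.44 that was called lower. Ppox and Cpox, named here after their values were seen, changed by 0.48 and 0.15 in counts and by -1.63 and -1.99 in TPM, and the count change of Cpox did not pass the test.

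Carriers around the pathway diverged as well. Slc25a39, which imports glutathione into mitochondria, rose by 2.67 in counts and 0.80 in TPM, with 494, 502 and 466 TPM at 36 h, against 281, 276 and 281 TPM at 24 h. Tmem14c, which carries a porphyrin intermediate across the inner mitochondrial membrane, fell by 1.20 in counts and by 3.28 in TPM, with 107, 98.7 and 133 TPM at 36 h, against 1136, 1073 and 1078 TPM at 24 h. Over the list of iron and heme transport, 6 of 22 members were higher (27.3%) and 12 lower (54.5%) in counts. The shares over all tested genes were 34.1% and 39%. In TPM 2 of 21 members were higher and 17 lower (81.0%, against 89.1% of all tested genes). Ncoa4, the receptor that delivers ferritin to lysosomes, rose by 2.46 in counts, with a TPM change of 0.44 that missed the threshold. The transferrin receptor gene Tfrc was at 1008, 1042 and 1260 TPM at 36 h, against 3078, 2765 and 2913 TPM at 24 h, which was a rise of 0.66 in scaled counts and a fall of 1.41 in TPM. Tfr2, the second transferrin receptor, and Flvcr1, a heme exporter, fell on both scales, by 1.29 and 1.35 in counts.

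Erythroid transcription factors moved in both directions. Of 22 tested regulators, 13 were higher (59.1%) and 9 lower (40.9%) in counts, against 34.1% and 39% of all tested genes. In TPM 1 was higher and 15 were lower (68.2%, against 89.1% of all tested genes). Mafk, a small Maf partner of NF-E2, was the regulator higher on both scales, at 66.0, 68.1 and 64.6 TPM at 36 h, against 41.8, 37.1 and 38.4 TPM at 24 h (2.86 in counts, 0.75 in TPM). Gata1, the central erythroid factor, was at 132, 123 and 130 TPM at 36 h, against 401, 399 and 392 TPM at 24 h; it changed by 0.47 in counts and by -1.62 in TPM, both past the threshold. Lmo2, Mafg and Gata2 rose by 2.00, 1.97 and 1.95 in counts, with TPM changes of -0.17, 0.10 and 0.04 that missed the threshold. Klf1, the activator of adult beta globin, fell on both scales, by 0.40 in counts and by 2.46 in TPM. Ldb1, Myb and Bcl11a, which encode a cofactor of the GATA1 complex, a progenitor factor and a repressor of embryonic globin, fell by 1.56, 1.24 and 1.20 in counts and by 3.56, 2.11 and 2.93 in TPM.

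Most genes of DNA replication, G1 and mitosis were lower at 36 h. All 30 tested replication genes fell in counts (median -1.43) and in TPM (median -3.17), and their summed level was 665, 598 and 876 TPM at 36 h, against 6962, 6552 and 6567 TPM at 24 h. Ccnd3, the D cyclin that governs the number of erythroid divisions (chr17:47505051-47599691, plus strand), was at 57.2, 47.4 and 79.9 TPM at 36 h, against 1013, 953 and 997 TPM at 24 h. It fell by 2.07 ± 0.12 in counts (adjusted p = 3.49e-12, edgeR) and by 4.02 in TPM, with the groups apart. E2f1, the activator of S phase genes, was at 1.69, 1.34 and 2.38 TPM at 36 h, against 37.6, 32.1 and 33.6 TPM at 24 h (-2.19 in counts), and Ccne1, cyclin E, fell by 2.02. Of 22 G1 and E2F genes, 16 fell and 4 rose in counts (median -0.99), and 20 of 21 fell and 1 rose in TPM; Tfdp2, a dimerisation partner of E2F, rose by 1.96 in counts and 0.60 in TPM. Of 26 mitotic genes, 17 fell and none rose in counts (median -0.41), and all 26 fell in TPM. Mki67, the proliferation antigen, changed by 0.22 in counts without passing the test and by -1.89 in TPM. Cdkn2b, an inhibitor of the D cyclin kinases, rose by 3.06 in counts and 0.81 in TPM.

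Motifs known from cell cycle promoters were counted in the replication and mitotic lists, and 4 stretches of 60 bases show them in gene orientation, with motif letters in capitals. Motifs were searched on both strands in the 300 bases from 250 before to 50 after each RefSeq start (GRCm38.p6). The E2F letters TTTGGCGC or TTTCCCGC were present in 10 of 24 matched replication promoters (41.7%), in 0 of 22 matched mitotic promoters and in 3.32% of 9552 matched tested genes. The CHR letters TTTGAA, an element known from late cell cycle genes, were present in 4 of 24 replication promoters (16.7%), in 17 of 22 mitotic promoters (77.3%) and in 15.1% of tested genes. A match describes letters and is not a bound site. The 4 genes were chosen for their motifs after their values were seen. Mcm5 and Mcm6 belong to the replicative helicase and fell by 1.79 and 1.89 in counts, while Cdk1, the mitotic kinase, and Cdc20, an activator of the anaphase complex, fell by 0.90 and 0.67. The stretches lie at chr8:75109334-75109393 (plus strand, Mcm5), chr1:128359719-128359778 (minus, Mcm6), chr10:69352913-69352972 (minus, Cdk1) and chr4:118437344-118437403 (minus, Cdc20).
Mcm5: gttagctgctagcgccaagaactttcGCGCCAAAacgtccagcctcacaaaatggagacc
Mcm6: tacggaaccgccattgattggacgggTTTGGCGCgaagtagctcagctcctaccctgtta
Cdk1: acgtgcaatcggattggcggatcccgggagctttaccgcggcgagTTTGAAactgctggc
Cdc20: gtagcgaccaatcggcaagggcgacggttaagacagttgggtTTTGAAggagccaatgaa

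Of 26 genes of nucleotide and one-carbon metabolism, 21 were lower and 3 higher in counts (median -1.58), and 24 were lower in TPM (92.3%, near the 89.1% of all tested genes). Cad, which begins pyrimidine synthesis, was at 0.679, 0.453 and 0.641 TPM at 36 h, against 15.4, 10.9 and 12.4 TPM at 24 h. Srm, the spermidine synthase, was at 0.887, 0.814 and 1.01 TPM at 36 h, against 29.5, 19.7 and 25.3 TPM at 24 h. Cad, Srm and Mthfd1, a folate enzyme, fell by 2.48, 2.68 and 2.46 in counts, with the groups apart in each. The exception on both scales was Nt5c3, the pyrimidine nucleotidase that clears RNA breakdown products from maturing red cells, at 495, 595 and 551 TPM at 36 h, against 238, 252 and 261 TPM at 24 h (3.24 in counts, 1.12 in TPM).

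Mitochondrial transcripts lost share of TPM, where 89.1% of all tested genes were lower. All 26 mitochondrial ribosome genes were lower in counts (median -0.95) and in TPM (median -2.64). Of 30 nuclear genes of the respiratory chain, 19 were lower and 4 higher in counts, and all 30 were lower in TPM. Ndufb5, a complex I subunit, was at 8.16, 6.67 and 11.8 TPM at 36 h, against 140, 146 and 156 TPM at 24 h (-2.18 in counts), while Ndufa1, another subunit, was higher by 1.07 in counts and lower by 1.09 in TPM. The 13 transcripts of the mitochondrial genome summed to 4.07% ± 0.473 of TPM at 36 h and 13.8% ± 1.03 at 24 h (SD, n = 3 each). In scaled counts 5 of these 13 were higher and 2 lower (median 0.10). In TPM all 13 were lower, with a median of -1.84, which is also that of all tested genes on the log2(TPM + 1) scale. That scale understates changes of low genes, so the equal medians do not mean an equal loss of share. The median TPM of the genes tested in counts averaged 2.42 at 36 h and 11.8 at 24 h. mt-Co1, a cytochrome oxidase subunit, was at 9053, 7769 and 8020 TPM at 36 h, against 16361, 18874 and 18468 TPM at 24 h, higher by 0.92 in counts and lower by 1.11 in TPM. mt-Nd1, a complex I subunit, was at 1082, 763 and 865 TPM at 36 h, against 7866, 7502 and 7646 TPM at 24 h, and fell on both scales, by 0.91 in counts and by 3.10 in TPM.

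Of 40 cytosolic ribosomal protein genes, 21 were lower (52.5%) and 4 higher (10%) in counts, against 39% and 34.1% of all tested genes. All 40 were lower in TPM, as were 89.1% of all tested genes. Eef1a1, the main elongation factor, was at 1776, 1736 and 1729 TPM at 36 h, against 7821, 8572 and 8526 TPM at 24 h; its count change of -0.19 missed the threshold, and its TPM change was -2.25. Of 28 translation factors, 7 were higher and 16 lower in counts, and 2 higher and 25 lower in TPM, where the share is that of all tested genes. Eif5, which helps choose the start codon, was at 1325, 1406 and 1407 TPM at 36 h, against 645, 640 and 703 TPM at 24 h, and rose by 2.98 in counts and 1.06 in TPM. Eif4a1, the cap-bound helicase, fell by 1.35 in counts. Of 20 aminoacyl-tRNA synthetases, 7 were higher (35%) and 8 lower (40%) in counts, near the shares over all tested genes (34.1% and 39%). In TPM 18 were lower (90%, near the 89.1% of all tested genes). Aars and Nars, which charge alanine and asparagine tRNAs, each rose by 1.79 in counts, with TPM changes of -0.31 and -0.27 that missed the threshold, while Kars and Dars, for lysine and aspartate, fell by 1.38 and 1.43 in counts.

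Of 35 nuclear pore and transport genes, 25 were lower and 6 higher in counts (median -0.82). In TPM 33 were lower (94.3%, near the 89.1% of all tested genes) and 2 higher. Ipo5, an importin, was at 9.53, 7.25 and 12.3 TPM at 36 h, against 153, 144 and 152 TPM at 24 h, and fell by 1.88 in counts. Tnpo1, the transportin that also imports nuclear proteins, was at 84.4, 90.7 and 92.7 TPM at 36 h, against 46.2, 40.9 and 46.8 TPM at 24 h, and rose by 2.88 in counts and 0.98 in TPM. Of 16 nuclear lamina genes, 11 were lower and 2 higher in counts. All 16 were lower in TPM, against 89.1% of all tested genes. The lamin gene Lmnb2 was at 0.567, 0.421 and 0.673 TPM at 36 h, against 15.7, 11.5 and 12.2 TPM at 24 h.

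The catalytic subunits of the complex that methylates histone H3 at lysine 27 moved apart. Ezh1 was at 15.4, 15.9 and 12.9 TPM at 36 h, against 4.70, 4.86 and 5.82 TPM at 24 h, and rose by 3.60 ± 0.13 in counts (adjusted p = 5.07e-15, edgeR) and 1.36 in TPM. Ezh2, named beside it after its values were seen, was at 24.2, 17.4 and 25.8 TPM at 36 h, against 142, 150 and 152 TPM at 24 h, and fell by 0.85 ± 0.08 in counts (adjusted p = 4.53e-09, edgeR) and 2.69 in TPM. Neither gene's groups overlapped. Of 17 deacetylases, 7 were higher (41.2%) and 8 lower (47.1%) in counts, against 34.1% and 39% of all tested genes. In TPM 2 of 16 were higher and 14 lower (87.5%, near the 89.1% of all tested genes). Sirt5, a mitochondrial deacylase, was at 143, 126 and 130 TPM at 36 h, against 43.8, 52.1 and 53.9 TPM at 24 h, while Hdac7 was at 0.301, 0.16 and 0.299 TPM at 36 h, against 5.86, 4.94 and 6.26 TPM at 24 h. Dnmt1 and Uhrf1, which maintain DNA methylation, fell by 1.37 and 1.31 in counts and 3.37 and 3.19 in TPM. Of 20 histone genes seen in polyadenylated RNA, 16 were higher and 3 lower in counts, and 4 higher and 11 lower in TPM; the linker histone gene Hist1h1c was at 291, 357 and 341 TPM at 36 h, against 155, 139 and 142 TPM at 24 h.

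Genes that mark proteins for destruction were mostly higher in scaled counts. Among 31 ubiquitin enzymes, 26 were higher and 3 lower in counts (median 1.67), while in TPM 10 were higher and 16 lower. Trim58, an erythroid ubiquitin ligase, was at 18.3, 19.4 and 18.7 TPM at 36 h, against 4.43, 3.52 and 5.19 TPM at 24 h (4.18 in counts, 1.89 in TPM). The conjugating enzyme gene Ube2h was at 159, 185 and 172 TPM at 36 h, against 42.8, 42.3 and 44.5 TPM at 24 h (4.06 in counts, 1.97 in TPM). Of 26 proteasome genes, 10 were higher (38.5%) and 5 lower (19.2%) in counts (median 0.08), against 34.1% and 39% of all tested genes. In TPM 1 of 25 was higher and 23 were lower (92%, near the 89.1% of all tested genes).

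Of 35 autophagy genes, 25 were higher and 4 lower in counts, while in TPM 9 were higher and 18 lower. Calcoco1, an autophagy receptor, was at 47.9, 53.3 and 39.7 TPM at 36 h, against 9.80, 9.95 and 10.3 TPM at 24 h, and Ulk1, the kinase that starts the process, was at 61.0, 72.6 and 52.1 TPM at 36 h, against 14.5, 12.7 and 14.4 TPM at 24 h. They rose by 4.31 and 4.19 in counts and by 2.11 and 2.07 in TPM, with the groups apart. Of 28 lysosome and V-ATPase genes, 18 were higher and 1 lower in counts (median 0.73), while 25 were lower and 1 higher in TPM, a share of lower genes (89.3%) like that of all tested genes. Lipa, the lysosomal acid lipase, rose by 4.54 in counts and 1.32 in TPM; Ctsz, a cathepsin, fell by 1.28 and 3.08. The CLEAR letters TCACGTGA were present in 6 of 21 matched lysosomal promoters (28.6%), in 1 of 29 autophagy promoters and in 2.13% of tested genes.

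Of 17 FOXO and quiescence genes, 12 were higher (70.6%, against 34.1% of all tested genes) and none lower in counts (median 1.67), while in TPM 2 were higher and 5 lower. Ccng2, an unconventional cyclin of resting cells, was at 40.5, 47.8 and 42.4 TPM at 36 h, against 6.72, 12.5 and 10.3 TPM at 24 h, and Cat, the catalase, was at 91.5, 94.9 and 87.9 TPM at 36 h, against 33.6, 38.1 and 35.1 TPM at 24 h. Both rose on both scales, by 4.27 and 3.49 in counts and by 2.07 and 1.34 in TPM. Of 23 p53 targets, 13 were higher and 6 lower in counts, and 5 higher and 8 lower in TPM, and their summed level was 1812, 2033 and 1848 TPM at 36 h, against 895, 869 and 888 TPM at 24 h, of which Gadd45a alone gave 1318 TPM on average at 36 h and 248 TPM at 24 h. Of 17 caspase genes, 12 were lower and 3 higher in counts. In TPM 15 of 16 were lower (93.8%, near the 89.1% of all tested genes) and 1 higher. Casp8, an initiator caspase, fell by 1.46 in counts. Of 25 chaperones, 10 were higher (40%) and 14 lower (56%) in counts, against 34.1% and 39% of all tested genes. In TPM 2 of 23 were higher and 19 lower (82.6%, against 89.1% of all tested genes). Bag3, a cochaperone of stress-induced autophagy, rose by 3.89 in counts and 1.66 in TPM, while the mitochondrial chaperonins Hspe1 and Hspd1 fell by 2.29 and 1.99 in counts.

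Interferon-stimulated genes, known for antiviral defence, included strong risers from very low levels. Of 47 tested members, 41 were higher and 1 lower in counts (median 2.63), while in TPM 12 were higher and 12 lower. The filters used all 21 libraries, so a member near 0 at 24 h could enter through later groups, and such a member could hardly be called lower. At 72 h the list summed to 2248, 1518 and 3727 TPM. These counts therefore describe the tested members only. The summed level of the list was 442, 459 and 413 TPM at 36 h, against 399, 390 and 417 TPM at 24 h, and the groups overlapped. Its median change in counts was 0.04 between 12 and 24 h and 2.02 between 36 and 48 h, so the rise continued after this interval. Ifit1, which binds foreign RNA caps (chr19:34640871-34650009, plus strand), was at 15.3, 13.2 and 11.3 TPM at 36 h, against 0.260, 0.380 and 0.463 TPM at 24 h (7.30 ± 0.36 in counts). Isg15, a ubiquitin-like modifier, was at 18, 19.3 and 15.3 TPM at 36 h, against 0.726, 0.602 and 0.874 TPM at 24 h (6.83 ± 0.42). The receptor subunit gene Ifnar1 was at 34.2, 32.8 and 26.1 TPM at 36 h, against 14.7, 17.1 and 16.5 TPM at 24 h (2.98 ± 0.14). The interferon-stimulated response element, searched on both strands as GAAA, any 2 bases and GAAA, was present in 20 of 36 matched promoters (55.6%) and in 3.92% of tested genes. Ifit1, Isg15 and Rsad2 show it below, 60 bases each in gene orientation with the matching letters in capitals; Rsad2, an antiviral enzyme chosen for its motif after its values were seen, was at 2.05, 2.35 and 1.80 TPM at 36 h, against 0.107, 0.114 and 0.172 TPM at 24 h. The stretches lie at chr19:34640779-34640838 (plus), chr4:156200850-156200909 (minus) and chr12:26456538-26456597 (minus).
Ifit1: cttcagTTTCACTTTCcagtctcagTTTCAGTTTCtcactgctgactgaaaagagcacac
Isg15: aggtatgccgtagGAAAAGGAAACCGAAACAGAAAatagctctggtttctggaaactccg
Rsad2: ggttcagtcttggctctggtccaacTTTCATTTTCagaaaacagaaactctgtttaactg

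Transcripts of the main transcription factors downstream of Epo fell. Stat5a, which with Stat5b relays the Epo receptor, was at 0.193, 0.259 and 0.304 TPM at 36 h, against 6.40, 5.25 and 5.91 TPM at 24 h, and fell by 2.42 in counts and 2.45 in TPM. Stat5b, named beside it after its values were seen, fell by 1.31 in counts and 2.78 in TPM. Epor, the receptor, was at 40.5, 44.5 and 50.4 TPM at 36 h, against 150, 137 and 146 TPM at 24 h, higher by 0.39 in scaled counts and lower by 1.66 in TPM. Osm, a cytokine induced by this pathway, was at 0.815, 0.881 and 1.04 TPM at 36 h, against 14.3, 17.1 and 18.4 TPM at 24 h, and fell by 2.12 in counts. Over the whole list of cytokine signalling, 14 of 27 members were higher (51.9%) and 7 lower (25.9%) in counts. The shares over all tested genes were 34.1% and 39%. In TPM 2 of 23 members were higher and 16 lower (69.6%, against 89.1% of all tested genes).

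In glycolysis, 10 of 20 tested entries, 2 of them for Aldoa, were lower and 4 higher in counts (median -0.64). In TPM 2 of 18 were higher and 16 lower (88.9%, near the 89.1% of all tested genes). The groups overlapped in scaled counts for Eno1, Gpi1, Hk2, Pfkl, Pgam1 and Pgk1, all called lower. In addition, 1 library stood apart from its group. Ldha, lactate dehydrogenase A, was at 9.20, 25.4 and 20.8 TPM at 36 h, against 357, 599 and 583 TPM at 24 h, and fell by 2.69 ± 0.32 in counts (adjusted p = 2.11e-07, edgeR). Summed glycolytic TPM was 1471, 1887 and 1577 at 36 h, against 4748, 6988 and 6724 at 24 h, and the lower 24 h value belonged to replicate 1. That library was also lowest in the summed hypoxia genes, with 574, 590 and 465 TPM at 36 h, against 376, 797 and 678 TPM at 24 h, so the groups overlapped there. Without 24 h replicate 1 the count changes were -2.92 for Ldha and 6.59 for Slc2a1; the part of this library in other results was not tested beyond leaving it out.

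**Figure D4:**
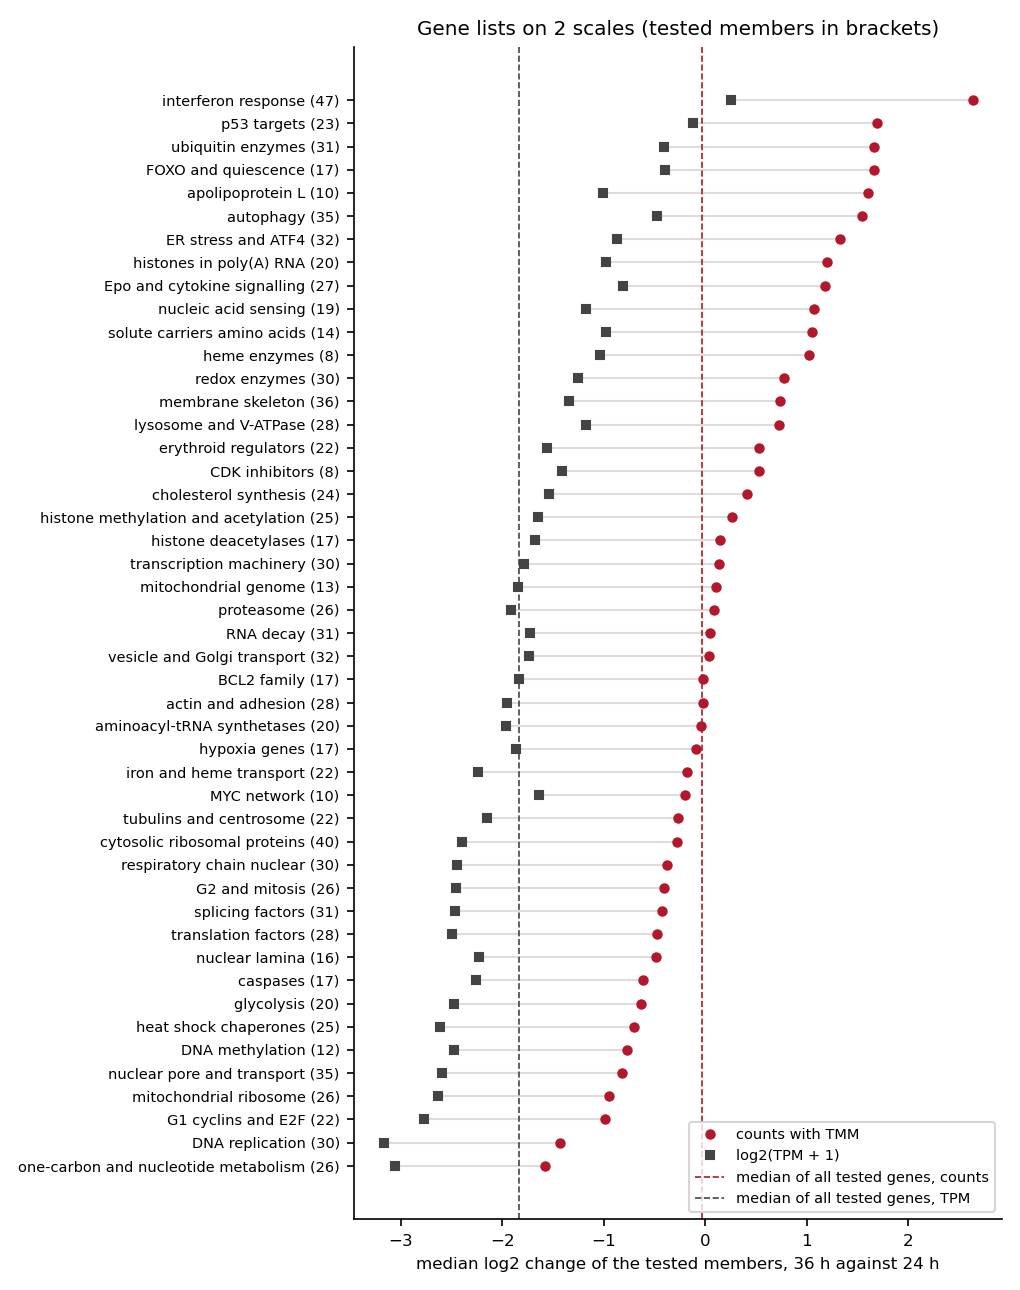
Median log2 change at 36 h against 24 h of the tested members of each gene list other than the cell type markers (rows), in TMM-scaled counts (red circles) and on log2(TPM + 1) (grey squares); dashed lines are the medians of all tested genes, -0.03 and -1.84. Among these lists interferon genes stand highest (2.63 in counts), and nucleotide metabolism (-1.58) and DNA replication (-1.43) lowest.

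Whether the step differed from those around it was tested by the difference between successive 12 h changes. Relative to the 12 to 24 h step, 21.4% of the 12360 tested genes (2651) changed more positively between 24 and 36 h and 29.6% (3658) more negatively, 51% in all. Relative to the 36 to 48 h step, 24.7% (3049) were more positive and 17.7% (2184) more negative, 42.3% in all. These shares hold for TMM scaling: without a scaling factor 1186 genes were more positive and 6403 more negative than in the step before, and 1318 and 5038 than in the step after, so the balance in the second difference turned round. The 24 h libraries enter both changes of the first difference and the 36 h libraries both of the second, so a chance deviation in them counts in both changes, with opposite signs. The ubiquitin enzymes were more positive than in the step before for 23 of 31 members and than in the step after for 24 of 31; without a scaling factor these were 13 and 17. Autophagy genes were more positive in 23 of 35 in each difference, and in 18 and 19 without a scaling factor. Replication genes were more negative than in the step before in all 30 and than in the step after in 12 (30 and 24 without a scaling factor), with medians of 0.35, -1.43 and -1.14 in the 3 successive steps. Cholesterol synthesis reached its largest median a step earlier: it was 1.42, 0.41 and -1.08 in the 3 steps, and 20 of 24 genes were more negative than in the step before (24 without a scaling factor). The list counts without a scaling factor were added after seeing the data.

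**Figure D5:**
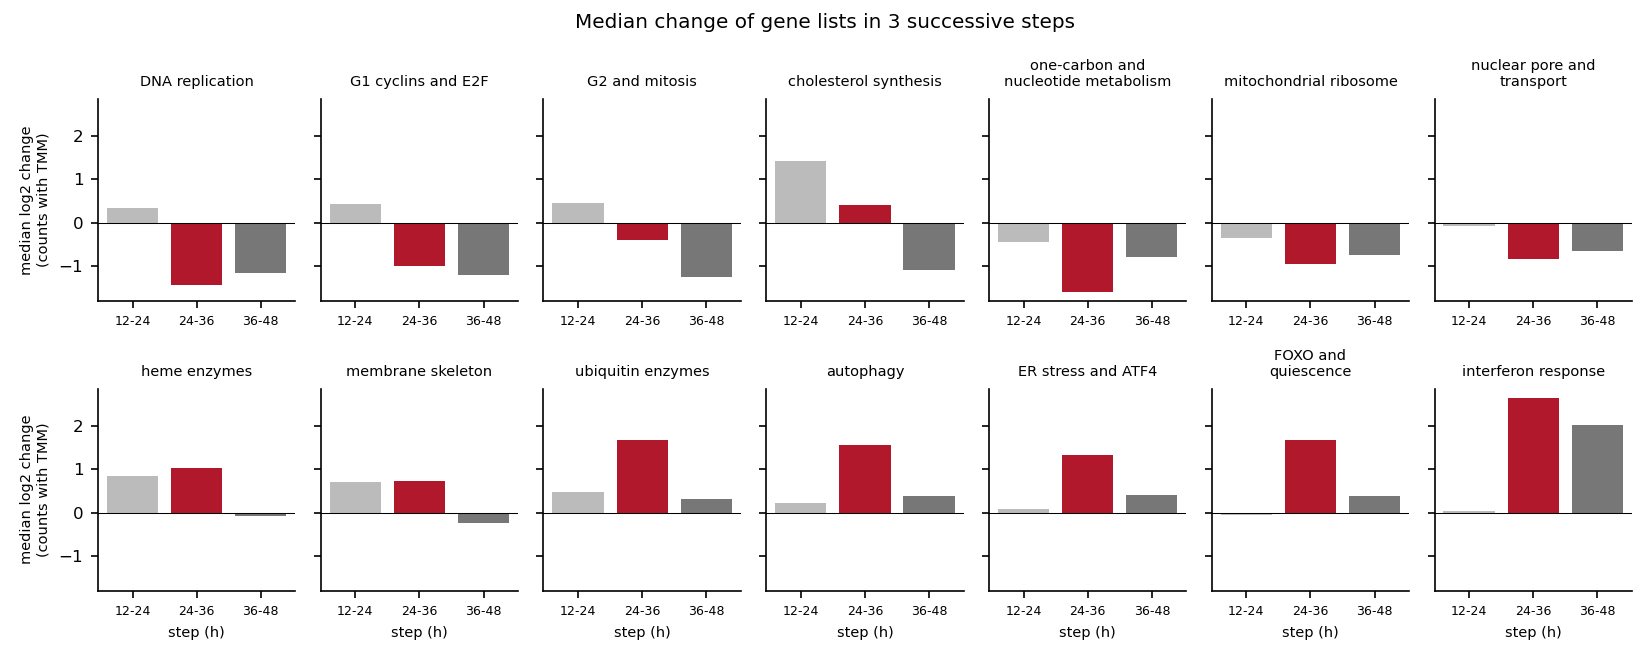
Median log2 change of 14 gene lists (TMM-scaled counts, vertical axis) in the steps from 12 to 24 h, 24 to 36 h (red) and 36 to 48 h. Replication genes have medians of 0.35, -1.43 and -1.14 in the 3 steps, and ubiquitin enzymes 0.46, 1.67 and 0.31.

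Single genes are given on the same scale. Ccnd3 changed by 0.91 between 12 and 24 h, by -2.07 in the next step and by -0.93 between 36 and 48 h; its difference from the step before was -2.98 (adjusted p = 3.2e-10, edgeR). Pabpc1 changed by -0.14, 3.77 and 0.91 in the 3 steps, with a difference of 3.91 from the step before (adjusted p = 6.5e-10, edgeR) and of 2.86 from the step after (adjusted p = 4.5e-09). Spr changed by -0.90, -3.35 and 0.49 in the 3 steps, with a difference of -3.84 from the step after (adjusted p = 1.6e-05, edgeR). Its levels at 36 h were near 0 TPM, so the sign of its last change is uncertain. Gp1ba, a platelet receptor subunit, changed by 4.47 between 12 and 24 h and by 0.68 in the next step, a difference of -3.79 (adjusted p = 2.1e-07, edgeR); its own level was 3.12, 2.29 and 2.69 TPM at 36 h, against 7.12, 6.28 and 6.45 TPM at 24 h, so the count rise was a TPM fall of 1.05.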

How the data were processed

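The libraries were strand-specific and made from polyadenylated RNA, per the labels. The authors deposited 1 table of counts and 1 of TPM per gene. Of the deposited count values 78.5% are whole numbers (within 1e-06), so the table was read as estimated counts, which were rounded before testing. The deposited TPM values were used as they stand. The submitters' processing notes name kallisto, STAR 2.5.3a, DESeq2 and the builds GRCm38.p5 and mm10; which tool made which table is not given in the sources used here. Counts were tested with edgeR 4.0.16 (R 4.3.3) in 1 quasi-likelihood fit of all 21 libraries with TMM factors and filterByExpr (minimum count 10), and TPM with limma 3.58.1 on log2(TPM + 1) for genes of mean TPM at least 1; p-values were adjusted by Benjamini-Hochberg over all tested genes, threshold 0.05. Standard errors in counts are the log2 change over the square root of its F statistic. Named genes were the 12 largest rises and falls in counts (mean count at least 100, no overlap), the 12 largest TPM rises, the 10 largest TPM gains and losses, a fixed panel, and up to 4 members of each list in each direction; further genes are marked as chosen after their values were seen. The members and lists were chosen with earlier results of these data known. Gene positions are from GENCODE on GRCm38, and promoter sequences from RefSeq on GRCm38.p6, which held 9552 of 12347 tested symbols. Correlations of deviations between 36 h and 24 h replicates of the same number were 0.292, 0.349 and 0.011 for replicates 1, 2 and 3. Between replicates of different numbers they ran from -0.330 to 0.109. Whether the numbers mark paired cultures was not tested.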

Additional observations from a re-analysis of the deposited data

How the results depend on the processing

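Scaling moved the split into higher and lower calls; the cause was not tested. Without a scaling factor 1718 genes were higher and 7852 lower at 36 h, the difference from the step before was positive for 1186 and negative for 6403 genes, and that from the step after for 1318 and 5038. A fold of at least 2 left 5089 calls, 2758 higher and 2331 lower. In TPM, dividing by a TMM factor gave 3571 genes higher and 3594 lower; over non-globin genes 2069 were higher, and with a single weight per gene in the compared libraries 883 were, both chosen after seeing the data. DESeq2's size factors, TMM without globins, no filter, the compared libraries alone and DESeq2 1.42.0 (9182 calls, 5 adjusted p-values not given) stayed within 1.5 times of the reported counts. A replicate block gave 9198 calls, 6578 and 5500 for the 2 differences and 8951 in TPM; no pairing is assumed. Leaving out each library gave 8562 to 8959 calls in counts (3963 to 4150 higher, 4599 to 4809 lower), 5366 to 6362 for the difference from the step before (2207 to 2638; 3159 to 3724), 4081 to 5384 for that from the step after (2565 to 3152; 1516 to 2232) and 8779 to 8857 in TPM (380 to 401; 8386 to 8472). Genes higher in scaled counts that turned negative in TPM were Aars (-0.31), Nars (-0.27), Fech (-0.30), Lmo2 (-0.17), Urod (-0.44) and Ndufa1 (-1.09). Without a scaling factor and in TPM the change was -0.84 and -1.99 for Cpox, -0.52 and -1.63 for Ppox, -0.61 and -1.66 for Epor, -0.52 and -1.62 for Gata1, -0.31 and -1.05 for Gp1ba, -0.77 and -1.89 for Mki67, -0.33 and -1.41 for Tfrc and -0.078 and -1.11 for mt-Co1. For the lists quoted in the report, leaving out a library moved these counts by over 1.5 times: lower interferon genes (0 to 1), higher cytosolic ribosomal protein genes (2 to 5) and lower proteasome genes (3 to 6). At 36 h the least deep library held 16695700 counts, which limits genes near 0 TPM.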

Other observations

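Further genes were picked after their values were seen. Fam46c, a noncanonical poly(A) polymerase, was at 504, 538 and 522 TPM at 36 h, against 78.8, 102 and 96.5 TPM at 24 h, and Crem, a cAMP-responsive factor, was at 172, 239 and 188 TPM at 36 h, against 15.3, 18.6 and 20.1 TPM at 24 h. They rose by 4.58 and 5.03 in counts and by 2.49 and 3.39 in TPM. The metallothionein gene Mt2 was at 10.6, 20.6 and 20.3 TPM at 36 h, against 324, 487 and 502 TPM at 24 h, and fell by 2.5 in counts and by 4.62 in TPM. The ratio of Hba-a2 to Hba-a1 was 0.457 in 48 h replicate 3, against 5.20 and 5.16 in the other 48 h libraries.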
